A study of Drosophila melanogaster with 3 samples.

Results

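Nested genes are genes whose whole transcribed unit lies inside an intron of another gene, the host. An RNA polymerase of the host that transcribes this intron passes through the nested gene, whose sequence is removed with the spliced intron. The nested gene's mRNA comes from a promoter and a poly(A) site of its own. In flies such pairs have been known since the pupal cuticle gene Pcp was found inside an intron of Gart, and the nested gene often lies on the strand opposite to its host. The genes described here were chosen by exon and intron coordinates in 1 pooled isoform assembly: a gene was taken when all its transcript models lay inside 1 intron of a multi-exon model of another gene. This held for 79 of the 4696 genes with a FlyBase identifier in the assembly, lying in 64 introns of 61 host genes, which left 4617 other genes for comparison.

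The assembly came from adult heads of untreated 3-day-old flies of the w1118 strain, 1 group of 3 samples, sequenced by FLAM-seq, a long-read method that reads full-length cDNA together with the poly(A) tail. Reads of the replicates were merged into 5980 models, so that no value could be compared between samples and the depth behind a model was unknown. Of 10 photoreceptor genes looked up, 8 had a model, and so did 45 of 76 genes on a list of male accessory gland and testis genes. For comparison, 4651 of the 13945 annotated protein-coding genes on the chromosome arms had a model. Both lists lay above that share, and the reason was not tested. No p-value is given: the members were selected on coordinates, and length, exon number and intron length bear on whether a gene can lie inside an intron, so these are descriptions. The same holds for the number of models, starts and 3′ ends, since all models of a nested gene had to lie in 1 intron while a host needed only 1 spliced model. Shares carry Wilson 95% intervals, which cover counting error over genes only and take no account of genes that share an intron.

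The host introns ran from 877 to 211034 nt with a median of 5691 nt (quartiles 3223 and 11845 nt), against a median of 71 nt over all 12985 introns of the assembly. All 64 host introns began with GT and ended with AG, as did 99.1% of all introns, and 63 of the 64 occur with the same ends in an annotated transcript of the host. The exception was the longest, in RpL7A, a protein of the large ribosomal subunit. Its single model of 6 exons holds 1 intron of 211034 nt on the X chromosome (chrX:6533162-6744195, dm6, minus strand), and 6 of the 79 nested genes, CG34417, CG3224, Ctr1A, ND-ASHI, Fum1 and CG3184, were nested only because of it.

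The sequence at the far end of that intron is shown because it decides whether the 6 genes are nested. The first exon of the model is 20 nt long (chrX:6744196-6744215) and lies within RpL17, another gene for a large-subunit protein on the same strand. RpL7A's own annotated first exon ends in the same letters (chrX:6533230-6533249), directly beside an annotated intron of 68 nt that uses the same acceptor site as the long intron. Capitals mark the GT and AG of the splice sites, each donor having 3 exon and 6 intron bases.
Exon in RpL17: tttttcgttccacgtttccg
End of RpL7A's own first exon: tttttcgttccacgtttccg
Donor in RpL17: ccgGTgagt
Donor of RpL7A's own first intron: ccgGTgagt
Shared acceptor: tttatttactttcAGcga
All 20 of 20 bases were identical, and the 20 bases occurred at 2 places on the 6 chromosome arms searched. The letters of this exon are therefore the same at both places. For the 73 nested genes outside RpL7A the median model length was 1128 nt (79 genes: 1139 nt) and the single-exon share 39.7% (38%). The share of 3′ ends with AATAAA was 64.4% (63.3%) and the share of CG-numbered symbols 65.8% (64.6%). The median host intron length was 5517 nt (5691 nt). Strand share, neighbouring pairs and the share on X are given without RpL7A beside their values. Other values include the 6 genes. The annotated extent of RpL7A ends 210867 nt short of the model's far end.

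Of the 79 nested genes, 26 lay on the strand of their host and 53 on the opposite strand, a host-strand share of 32.9% (Wilson 95% interval 23.6 to 43.9%), and 31.5% without the genes in RpL7A (23 of 73). Strand was not used to choose the genes. It was read from the assembly for the 49 genes with spliced models, of which 16 (32.7%) shared the host's strand. For the 30 genes with single-exon models it was taken from the annotation, since 29 of the 30 were recorded on the other strand, and 10 of them (33.3%) shared the host's strand. The poly(A) signal AATAAA bears on that choice: it stood in the last 50 nt at 18 of the 30 single-exon 3′ ends read on the annotated strand (60%, interval 42.3 to 75.4%) and at 3 of 30 read on the recorded strand (10%, interval 3.46 to 25.6%).

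A nested gene on the host's strand has its poly(A) signal in the host's pre-mRNA as well. Signals of this kind were present. Of 26 genes on the host strand, 19 had AATAAA within 50 nt of the 3′ end (73.1%, interval 53.9 to 86.3%). On the opposite strand 31 of 53 did (58.5%, interval 45.1 to 70.7%), and the intervals overlap. The 26 include CG3184, CG3224 and ND-ASHI in RpL7A, of which only CG3184 had the signal. Over all nested genes the signal was found at 50 of 79 3′ ends (63.3%, interval 52.3 to 73.1%), against 2631 of 4838 3′ ends (54.4%, interval 53 to 55.8%) of the other genes and 54.5% of all 3′ ends in the assembly. A filter in the study's methods kept some distal 3′ ends only with this signal, and whether it had been applied to this assembly is not stated. In a window of the same length 200 nt further upstream the shares were 2.53% for nested genes and 3.29% for the other genes. With ATTAAA counted too, the shares were 72.2% for nested genes and 65.9% for the other genes. Genomic DNA with at least 7 A in the 10 bases after the 3′ end followed 7 of 79 nested 3′ ends (8.86%), against 10.4% of all 3′ ends.

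The last 30 bases of 5 nested genes show the signal in place, or its lack, inside a host intron. In the last 30 bases AATAAA stood at 39 of 79 nested 3′ ends (49.4%) and at 44% of those of the other genes. The examples therefore show it more often than the group does. The sequence runs 5′ to 3′ on the strand of the nested gene and ends at the model's 3′ end, in dm6 coordinates, with AATAAA in capitals.
CG3982 in Atat, host strand (chr3L:9415756-9415785): caattcccAATAAAacaaattagagagttg
CG7916 in CenG1A, host strand (chr2L:13847770-13847799): aacaccagccAATAAAaagcaattcaaacg
Rel in Nmdmc, host strand (chr3R:9044184-9044213): aatgttgatcAATAAAgtaccttagtttta
Cyp6d5 in rdx, opposite strand (chr3R:14031454-14031483): aaccgtatAATAAAcgtgcaatttgtaatg
ND-ASHI in RpL7A, host strand (chrX:6677177-6677206): ccgttcttaatgagcagcaaaaaacgaaat
The signal began 20 to 22 bases before the end in the first 4, and ND-ASHI had neither AATAAA nor ATTAAA there. Nepl6, LysP and pre-mod(mdg4)-Z, which lie in annotated host introns and are not printed, also had neither. The splice sites that bound the host introns of the 3 host-strand genes with a signal are given for comparison, the donor first and the acceptor (15 intron and 3 exon bases) after it.
Atat donor: gagGTactg
Atat acceptor: tttctctatttccAGata
CenG1A donor: aagGTaagt
CenG1A acceptor: gatgttttcttacAGatt
Nmdmc donor: aagGTatgc
Nmdmc acceptor: atgatcgcattccAGcaa

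Models of nested genes were short. Their median length was 1139 nt (quartiles 870 and 1839.5 nt), against 1430 nt (958 and 2017.5 nt) for the other genes and 2125 nt (1690 and 2794 nt) for the hosts. In the annotation, the median of the longest coding sequence was 810 nt for nested genes, against 1014 nt for the other genes. The shortest was RpL41, a large-subunit ribosomal protein with 319 nt of mRNA in 3 exons and a coding sequence of 75 nt, inside an intron of the sodium channel gene NaCP60E on the opposite strand. It was followed by Acp63F, a seminal fluid protein (400 nt), Def, the antimicrobial peptide defensin (420 nt), CG30197 (480 nt) and CG44158 (528 nt). The longest were CG34417 (3540 nt), Cse1, the exporter of importin alpha (3299 nt), Rel, the NF-kappaB factor of the Imd immune pathway (3041 nt), CG11147 (2897 nt) and chif, which encodes a Dbf4-related activator of the replication kinase Cdc7 (2761 nt). CG34417 and chif were also the 2 nested genes whose model was shorter than the longest annotated coding sequence, which is 15546 nt for CG34417 and 5133 nt for chif, so that their models cover only part of the gene; this was 2.53% of nested genes, against 2.91% of the other genes (133 of 4572).

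**Figure D1:**
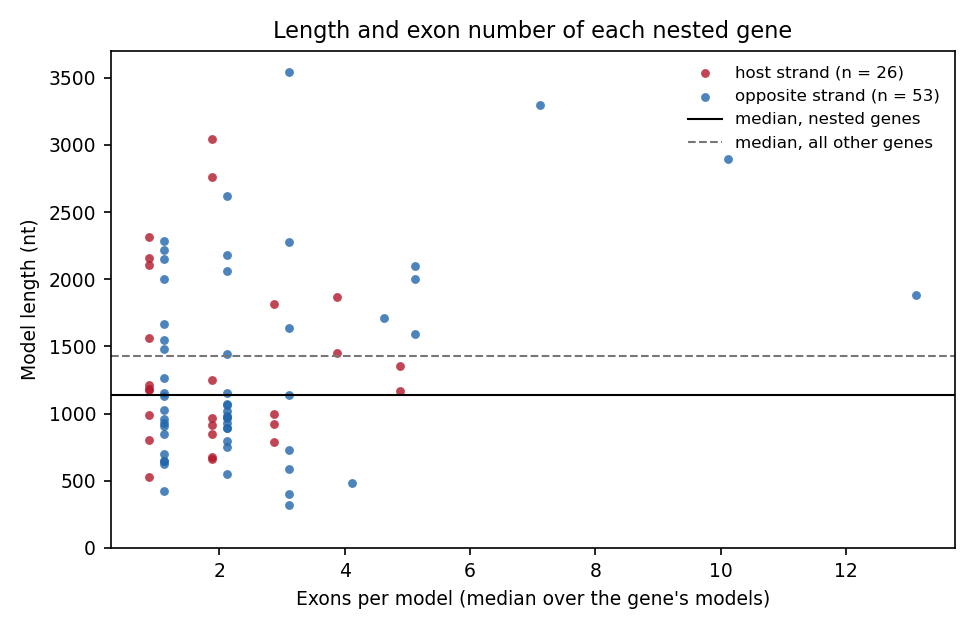
Model length in nt (vertical axis) against the exons per model (horizontal axis) of each of the 79 nested genes, with the 26 on the host strand in red and the 53 on the opposite strand in blue, shifted sideways so that they can be told apart. The solid line is the median of the nested genes (1139 nt) and the dashed line that of all other genes (1430 nt), and the genes with 7, 10 and 13 exons all lie on the opposite strand.

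Single-exon models were frequent. Of the 79 nested genes, 30 had single-exon models only (38%, interval 28.1 to 49%), against 628 of the 4617 other genes (13.6%, interval 12.6 to 14.6%) and 14.0% of all genes. The median exon number was 2 in nested genes, against 3 in the other genes and 5 in the hosts. A further 25 nested genes had 2 exons and 12 had 3. Splicing within a nested gene reached 13 exons in CG33934, which lies in an intron of 9913 nt of CG17193, 10 exons in CG11147, in an intron of 33466 nt of CG11030, and 7 exons in Cse1, in an intron of mdy, which encodes a diacylglycerol acyltransferase. On the host strand the most exons were 5, in CG30022 in sprt and in CG33098 in Sol1, followed by 4 in CG3982 in Atat, which acetylates alpha-tubulin, and in CG45071 in Ctps, the CTP synthase. Single-exon shares by strand were 38.5% (10 of 26, host strand) and 37.7% (20 of 53, opposite strand).

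The number of models is in part set by the rule, as said above. Among the nested genes 1 of 79, the cytochrome P450 gene Cyp6d5, had more than 1 model (1.27%, interval 0.224 to 6.83%), against 697 of the 4617 other genes (15.1%, interval 14.1 to 16.2%) and 14.9% of all genes. No nested gene had a second transcription start site or a second 3′ end, starts more than 50 nt and 3′ ends more than 150 nt apart counting as distinct, against 4.66% and 4.27% of the other genes. A count of 0 of 79 leaves room for shares of up to 4.64%, the upper end of the interval. Of the host genes, 18 of 61 had more than 1 model (29.5%, interval 19.6 to 41.9%), and 12 of 61 had more than 1 start site (19.7%). Where a host had several models, the nested gene lay in an intron of all of them for 14 of 20 nested genes. Nepl11 lay in an intron of all 10 models of cpx, which encodes the synaptic vesicle fusion regulator complexin. Mst77F, a protein of condensed sperm chromatin, lay in an intron of 1 of the 4 models of Pka-R1, a regulatory subunit of protein kinase A.

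**Figure D2:**
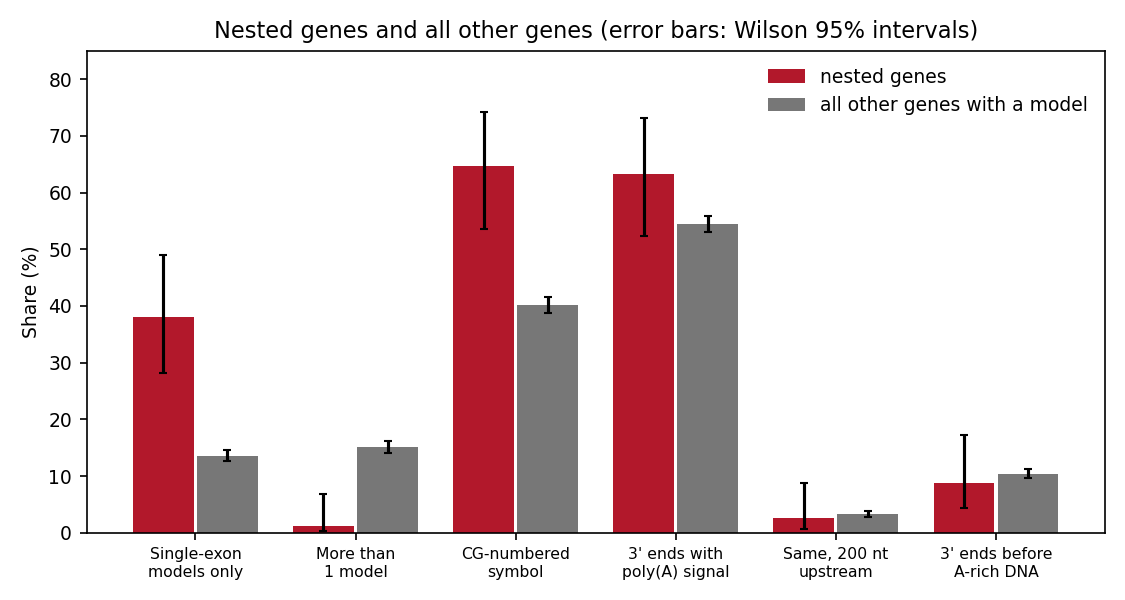
Share in percent (vertical axis) of nested genes (red) and of all other genes with a model (grey) with each property; for the 3 properties of 3′ ends the share is of 3′ ends, the poly(A) signal being AATAAA in the last 50 nt. Error bars are Wilson 95% intervals. Single-exon models (38% against 13.6%) and more than 1 model (1.27% against 15.1%) bear on the rule that chose the genes; CG-numbered symbols (64.6% against 40.1%) and the poly(A) signal (63.3% against 54.4%) were not used by it.

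Long introns held nested genes more often than short ones. A nested gene lay in 3 of 11118 introns below 1000 nt (0.027%), 5 of 711 from 1000 nt (0.703%), 22 of 669 from 2000 nt (3.29%), 17 of 261 from 5000 nt (6.51%), 15 of 150 from 10000 nt (10%) and 9 of 76 from 20000 nt (11.8%, interval 6.36 to 21%). These classes count every intron around a nested gene, 71 in all, whichever host or host model it belongs to. The 64 host introns are the smallest one for each gene. The class from 20000 nt includes the RpL7A intron. First introns were 30 of the 64 host introns (46.9%), against 35.5% of all introns of the assembly. At 2000 nt or more they were 27 of 56 host introns (48.2%, interval 35.7 to 61%), against 585 of 1100 other introns (53.2%, interval 50.2 to 56.1%). Within the intron, 41 of 79 genes were nearer to the donor than to the acceptor (51.9%, interval 41.1 to 62.6%). They took up a median of 20.1% of the intron, and 16 of 79 filled more than 50% of it. The fullest introns were those of Acsl, a long-chain acyl-CoA synthetase, of which CG30355 filled 92%, and of mdy, of which Cse1 filled 91.9%. By chromosome arm, the nested share of the genes with a model was 1.75% on 2L, 1.56% on 2R, 1.64% on 3L, 1.7% on 3R and 1.92% on X, and 0 of 34 on the fourth chromosome. Without the RpL7A intron, which holds 6 of the 11 nested genes of the X, the share on X was 0.873% (5 of 573, interval 0.373 to 2.03%).

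**Figure D3:**
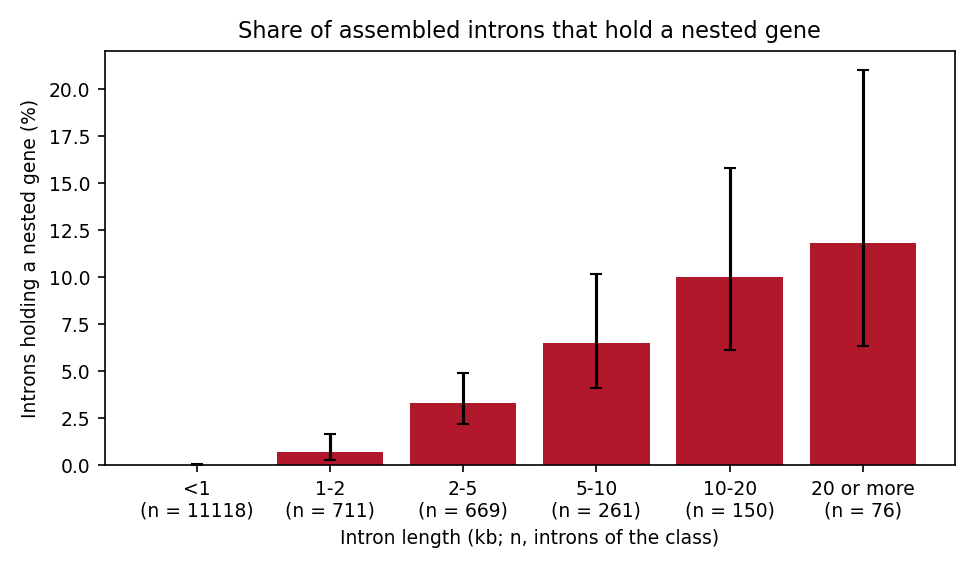
Share in percent of the assembled introns of each length class that hold a nested gene (vertical axis), by intron length in kb (horizontal axis, with the number of introns); error bars are Wilson 95% intervals. The share is 0.027% below 1 kb and 11.8% at 20 kb or more.

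At the edge of the rule, CG30355 lay 12 nt from a splice site of Acsl, CG30178 lay 23 nt from one of Phm, an enzyme that amidates neuropeptides, and CG30357 lay 28 nt from one of CG14767. Just outside it, CG43935 ran 3 nt beyond an intron of spz, which encodes the Toll ligand Spätzle, Dpy-30L2 ran 18 nt beyond an intron of CG1136, and RpL17 itself ran 20 nt beyond the long intron of RpL7A, by the length of the shared exon. In all, 22 genes lay more than 50% but not wholly inside an intron of another gene.

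Of the 64 introns, 56 held 1 nested gene and 8 held several, which together contain 23 of the 79 genes. After RpL7A with 6, the intron of CenG1A, an Arf GTPase-activating protein, held 4 nested genes in 54867 nt, and that of CG4678 held 3 in 11028 nt. In CenG1A, CG33307 and CG33306 lay on the opposite strand and CG7916 and CG7953 on the host strand, and all 4 lay within the first 12608 nt after the donor; these were 4 of the 6 annotated coding genes inside the intron. CG7916 and CG7953, which follow each other in 1 direction, were 126 nt apart. In CG4678, CG9676 and CG9673 lay opposite to the host and CG4653 on its strand, and CG9673 and CG4653 were divergent, with 197 nt between their starts. CG9676 is named as a serine protease in RefSeq synonyms, and CG9673 and CG4653 as serine protease homologues, which resemble proteases. Of the 15 neighbouring pairs within an intron, 5 were divergent, 5 convergent and 5 in the same direction; without RpL7A there were 10 pairs, 3 divergent, 2 convergent and 5 in the same direction.

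A pair chosen after its values were seen, Nepl5 and Nepl6, shared an intron of 4893 nt of DIP-epsilon, an immunoglobulin-domain protein of neuronal surfaces. Both encode neprilysin-like proteins, members of a family of zinc metallopeptidases, and both had single-exon models, of 2153 nt for Nepl5 and 2108 nt for Nepl6. They lay tail to tail with a gap of 0 nt, the last base of the one 3′ end being next to the last base of the other. Nepl13 (2282 nt) and Nepl15 (2216 nt) lay 2864 nt apart in an intron of 11342 nt of CG7029, opposite to the host. They also lay within an intron of 15244 nt of Usp12-46, a deubiquitinase gene. CG43091 and CG43093 lay in an intron of 8022 nt that is the same in the models of Usp12-46 and CG7029, and is counted under Usp12-46 here, so that these 4 genes had 2 hosts each. The models of CG7029 and Usp12-46 have 3 exons each, of which 2 are identical, so the host identity is uncertain. With Nepl11, 5 of the 12 neprilysin or neprilysin-like genes with a model were nested, 6.33% of the nested genes. The other 7, among them Nep2 and Nep6, were 0.152% of the 4617 other genes. Of these 7, Nep6, Nepl18 and Nepl21 are nested in the annotation. The group was noticed in the list of members and not tested.

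**Figure D4:**
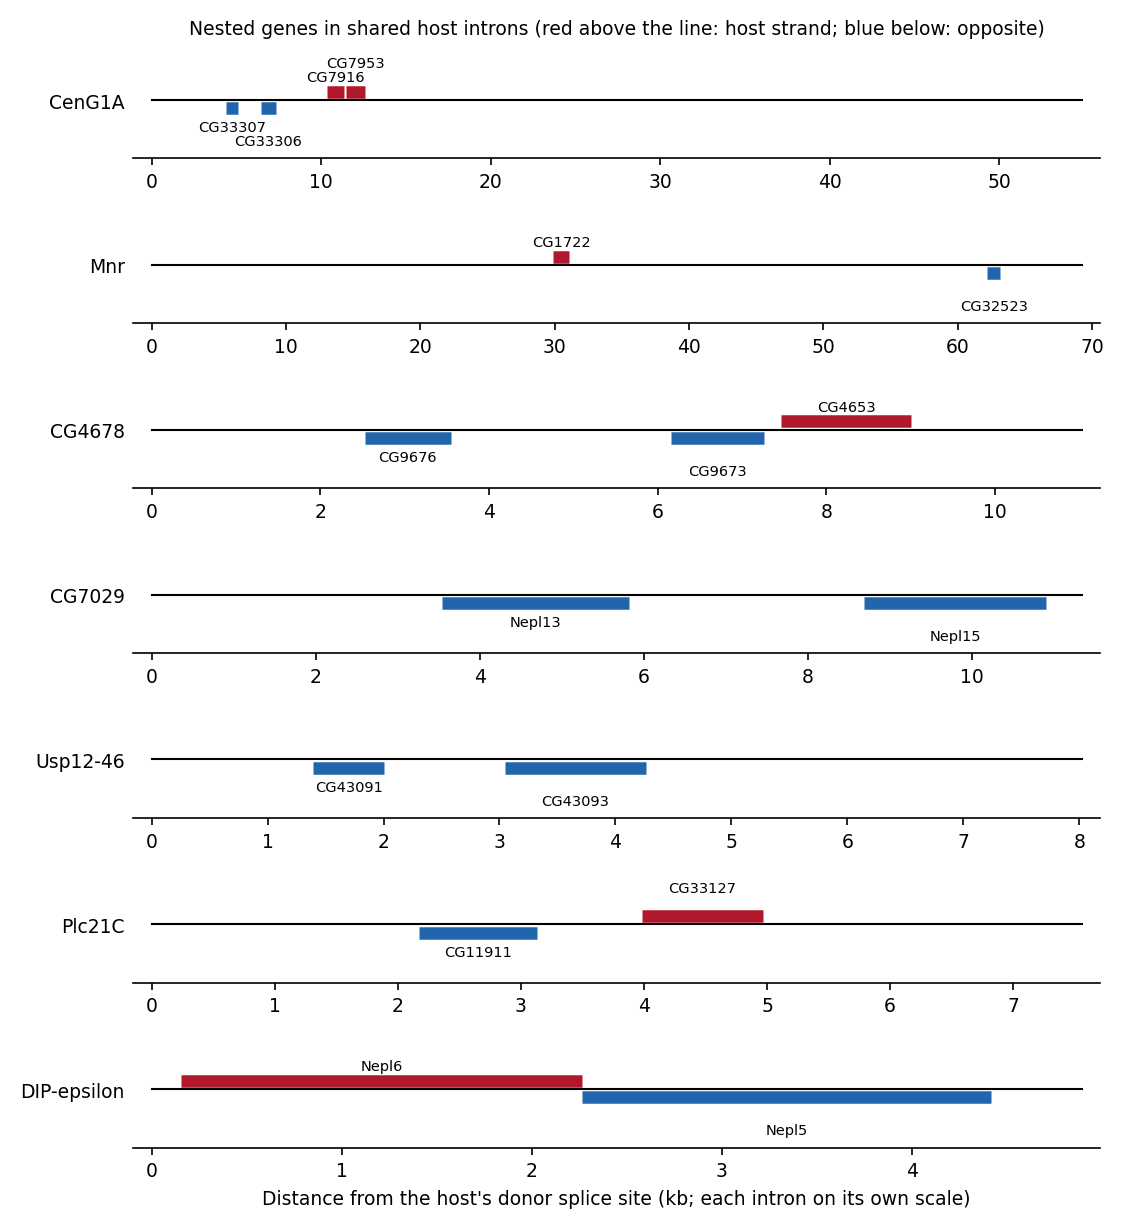
Nested genes in 7 host introns that hold several, drawn to scale along the distance from the host's donor site in kb (horizontal axis, each intron on its own scale). Genes on the host strand are red and above the line and genes on the opposite strand blue and below it; the 4 genes of CenG1A lie close to the donor and Nepl6 and Nepl5 abut in DIP-epsilon.

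By function, the nested genes formed no single class. Of 79, 51 (64.6%, interval 53.6 to 74.2%) had only a CG number for a name, which in flies marks a gene not yet named for a phenotype or protein, against 40.1% of the other genes (interval 38.7 to 41.5%) and 40.5% of all genes; among the hosts it was 15 of 61 (24.6%). Serine proteases and their homologues, taken from RefSeq synonyms, made up 6 of 79 nested genes (7.59%), against 89 of 4617 other genes (1.93%). They were the 3 genes in 1 intron of CG4678, CG11911 and CG33127 in 1 intron of the phospholipase gene Plc21C, and CG32523 in Mnr. As neighbours in shared introns they are not independent. This class is not on the lists described below and was not tested. All 79 nested genes are annotated as protein-coding, as are 4651 of the 4662 genes with a model that are in the annotation.

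Among the lists of functional classes, cytoplasmic ribosomal proteins gave 1 nested gene (RpL41) of 70 with a model. Oxidative phosphorylation subunits gave 1 of 53 (ND-ASHI, of complex I, nested only through the RpL7A intron) and cytochrome P450 enzymes 1 of 40 (Cyp6d5). Immune peptides and effectors gave 1 of 36 (LysP, a lysozyme) and male accessory gland and testis genes 2 of 45 (Acp63F and Mst77F). From tRNA synthetases came 1 of 10 (SerRS-m, the mitochondrial seryl-tRNA synthetase, not nested in the annotation). None of the 49 mitochondrial ribosomal proteins, 33 proteasome subunits, 23 odorant-binding proteins or 27 translation initiation factors with a model was nested. The lists were matched by symbol and are not complete: the nested genes Def and NP15.6, another complex I subunit, are on none of them. These counts are small, and 79 of 4696 genes were nested in all. Hosts were 61 of the 4696 genes in all. Among the cytoplasmic ribosomal proteins 1 of 70 was a host (RpL7A, only through its unannotated intron of 211034 nt). Of the ion channels 2 of 12 were, NaCP60E and trpl, a cation channel of phototransduction. So were 2 of 8 photoreceptor genes (trpl again and Rh4, a rhodopsin) and 1 of 19 Rab GTPases (Rab3, of synaptic vesicles). The same held for 1 of 11 genes of cAMP, kinase and phosphatase signalling (Pka-R1) and 1 of 16 cuticular proteins (Cpr51A). Lists without a host included the 33 proteasome subunits, 16 cytoskeleton and scaffold genes and 13 genes of cell adhesion and axon guidance. These lists miss hosts as well: DIP-epsilon, tmod, which encodes tropomodulin, and Atat are hosts and are on none of the lists. No host was itself nested.

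Further pairs were picked by the names of their genes. LysP lay in an intron of 20429 nt of mwh, which limits the number of hairs on a wing cell. Lk, which encodes the neuropeptide leucokinin, lay 43 nt from a splice site in an intron of 1770 nt of CG34039, on the opposite strand. Tdc1, a tyrosine decarboxylase that makes tyramine, lay in an intron of 15785 nt of Rpp25, a subunit of ribonuclease P. Rel lay on the host strand in an intron of 5517 nt of Nmdmc, a mitochondrial enzyme of folate metabolism, and filled 60.5% of it. One pair joined related genes on 1 strand: Adgf-A2 in an intron of 9636 nt of Adgf-A, both adenosine deaminase-related growth factors. By its annotated extent Adgf-A2 is not nested.

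The gene pre-mod(mdg4)-Z, with 3 exons and 1635 nt, lay opposite to its host in an intron of 22423 nt of mod(mdg4). This host is marked in RefSeq as trans-spliced, a process in which exons from separate transcripts, some of them from the other strand, are joined into 1 mRNA. All 23 annotated coding genes inside that intron carry a pre-mod(mdg4) name, and 1 of the 23 had a model.

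The assembly holds a small part of the nesting in the genome. In the annotation, 1404 of 13945 protein-coding genes on the 6 arms (10.1%) lie wholly inside an annotated intron of another gene, and 426 of them had a model (30.3%, interval 28 to 32.8%), against 4225 of 12541 other coding genes (33.7%, interval 32.9 to 34.5%). The host had a model for 99 of these 426 genes (23.2%), and 69 of the 99 were nested in the assembly. Of the other 30, 28 lay beyond the ends of the assembled host models, which did not reach across the intron. In the reverse direction, 10 of the 79 were not nested in the annotation. They were the 6 genes in RpL7A, Adgf-A2 in Adgf-A, CG9839 in the chaperonin gene CCT7, SerRS-m in Nagk, and chif in Hyls1. The host introns of the genes outside RpL7A are annotated, so the annotated extents of these genes run beyond them. Of the annotation-nested genes with a model, 114 of 426 (26.8%) shared the strand of the host with the smallest intron around them. Of all 1404 it was 439 (31.3%). Both values lie within the interval of the 79, but 69 of the 79 are in both sets. Among the 327 without a host model, which hold none of the 79, it was 82 (25.1%, interval 20.7 to 30%).

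Textbook pairs of the fly were not recovered as pairs. Adh, the alcohol dehydrogenase gene, had a model and lies in an annotated intron, but its host osp had none. Gart had a model, and Pcp, the cuticle gene in its intron, had none. Adhr, VAChT, Pig1 and Sgs4 and the hosts ChAT and dnc had no model.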

How the data were processed

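The authors prepared FLAM-seq libraries from 3 samples of heads, merged the replicates, aligned the reads to dm6 and built 1 assembly with FLAIR, requiring at least 2 full-length reads per model and a supported 5′ end. The processing notes also name featureCounts. The deposited values are exon start and end coordinates, with no counts, so depth was unknown and intervals cover counting error only. The methods describe a later filter on 3′ ends, which kept some distal ends only if they had AATAAA; the sources do not say whether the deposited assembly precedes it.

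Models with a FlyBase identifier were grouped by gene. Single-exon models took the strand of their annotated gene (Ensembl release 115). A gene was nested if all its models lay in 1 intron of another gene, and the smallest such intron named its host. Shares and intervals were computed in Python 3.11.15. The search for nested genes was checked on simulated coordinates, and the interval formula was checked on 1 share. Sequences came from the RefSeq genome of the same build, on which 99.1% of introns were GT-AG. Names and roles came from RefSeq and general knowledge.

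The members and lists were chosen with earlier results of these data known. Genes named in the text were textbook pairs, genes of the 5 hosts with the most nested genes, those in the longest introns, the longest and shortest, those with most models or exons, those on a list, and those at the edge of the rule. Others were chosen after their values were seen.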

Additional observations from a re-analysis of the deposited data

How the results depend on the processing

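The number of nested genes was 79 and lay between 69 and 84 over 7 alternatives, and the number of hosts between 55 and 65. The median model length lay between 1064 and 1155 nt, the median exon number stayed at 2, the single-exon share lay between 37 and 41.7%, and the median host intron length between 5517 and 6998 nt. With the strand of single-exon models as recorded, the share on the host strand was 44.3% in place of 32.9%, and the share of 3′ ends with AATAAA was 44.3% in place of 63.3%. With the last 30 nt searched for the signal in place of 50 nt, that share was 49.4% for nested genes and 44% for the other genes. Leaving out the genes in the RpL7A intron, and keeping only genes nested in the annotation too, were chosen after seeing the data. Without the RpL7A group there were 73 genes, 31.5% of them on the host strand.

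No paired analysis was possible because the 3 samples belong to 1 group and were pooled into 1 assembly. No replicate was left out for the same reason. Depth per model was unknown.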
